A study of Homo sapiens with 4 samples.

Results

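The short arm of chromosome 9 was examined as chromosome 9 from base 1 to 39000000 on hg19, in ChIP-seq libraries of K562, an established human chronic myeloid leukaemia cell line. Its members were all 39000 tiles of 1 kb in that interval. Reads of at least 1 library fell in 27727 of them, against 2598309 such tiles in the whole genome. The rule used position alone and no measured value. All 4 libraries came from K562 cells labelled WT, with no treatment named: 2 used an antibody against DPF2 and 2 an antibody against crotonylated lysine 14 of histone H3 (H3K14cr). The DPF2 libraries held 7787444 and 13317496 reads, and the H3K14cr libraries 10880366 and 17369133 reads. On the short arm they held 52749 and 89976 reads for DPF2, and 72763 and 117063 for H3K14cr. The labels name no separate cultures. Both libraries of an antibody were alike within counting noise in 1 kb tiles (chi-square per degree of freedom 0.981 for DPF2 and 0.990 for H3K14cr over the genome). Each antibody was therefore counted as 1 sample (n = 1), and p-values measure technical spread. No input library was analysed here.

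DPF2 belongs to the BAF complexes, which remodel chromatin, and its tandem PHD fingers bind histone H3 that carries an acyl group on lysine 14. Crotonylation of that lysine is one such acyl mark and is known from the starts of active genes. CDKN2A encodes the cell cycle inhibitors p16INK4a and p14ARF and CDKN2B encodes p15INK4b; MTAP, their neighbour, recycles methylthioadenosine into the methionine salvage pathway. The type I interferon genes lie beside them. K562 is known to lack CDKN2A.

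Sequences of 6 gene starts and 3 miRNAs are shown because the results turn on them. CDKN2A and IFNB1, the interferon beta gene, lie in the largest interval without reads. C9orf72 and ZDHHC21 are the genes at the highest DPF2 and H3K14cr folds near a gene start used here. At SHB each antibody was the higher one in 1 of 2 neighbouring tiles. PAX5 has a start close to that of ZDHHC21 in CG count, and no site was called there. Each window runs from 250 bases before to 50 bases after the start on the gene's own strand, from RefSeq on GRCh38.p14, with every CG dinucleotide in capitals. On that build the windows are chr9:21974808-21975107 (CDKN2A), chr9:21077893-21078192 (IFNB1), chr9:38069178-38069477 (SHB), chr9:27573817-27574116 (C9orf72), chr9:14693383-14693682 (ZDHHC21) and chr9:37034219-37034518 (PAX5), all on the minus strand.
CDKN2A: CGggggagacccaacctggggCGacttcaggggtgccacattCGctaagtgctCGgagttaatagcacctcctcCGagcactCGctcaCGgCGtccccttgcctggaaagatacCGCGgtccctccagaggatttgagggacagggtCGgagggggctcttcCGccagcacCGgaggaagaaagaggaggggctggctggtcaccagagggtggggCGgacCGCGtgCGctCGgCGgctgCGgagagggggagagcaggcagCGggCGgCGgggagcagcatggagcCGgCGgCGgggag
IFNB1: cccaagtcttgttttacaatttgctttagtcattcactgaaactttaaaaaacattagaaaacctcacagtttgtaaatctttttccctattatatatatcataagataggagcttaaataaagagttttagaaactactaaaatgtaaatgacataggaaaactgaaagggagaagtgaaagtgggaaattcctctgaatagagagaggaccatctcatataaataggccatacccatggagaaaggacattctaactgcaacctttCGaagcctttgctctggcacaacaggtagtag
SHB: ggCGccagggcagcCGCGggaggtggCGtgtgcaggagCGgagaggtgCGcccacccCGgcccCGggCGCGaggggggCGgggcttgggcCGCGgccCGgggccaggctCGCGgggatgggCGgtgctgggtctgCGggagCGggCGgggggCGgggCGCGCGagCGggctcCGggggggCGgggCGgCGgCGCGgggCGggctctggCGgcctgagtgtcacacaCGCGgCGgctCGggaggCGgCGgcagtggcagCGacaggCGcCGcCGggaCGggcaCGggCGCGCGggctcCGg
C9orf72: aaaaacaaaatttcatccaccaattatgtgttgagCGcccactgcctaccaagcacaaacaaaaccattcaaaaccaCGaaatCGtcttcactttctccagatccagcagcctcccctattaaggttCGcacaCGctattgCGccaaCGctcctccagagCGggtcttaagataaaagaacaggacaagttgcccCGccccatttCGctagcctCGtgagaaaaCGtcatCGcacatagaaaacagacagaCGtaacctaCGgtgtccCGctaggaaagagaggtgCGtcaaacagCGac
ZDHHC21: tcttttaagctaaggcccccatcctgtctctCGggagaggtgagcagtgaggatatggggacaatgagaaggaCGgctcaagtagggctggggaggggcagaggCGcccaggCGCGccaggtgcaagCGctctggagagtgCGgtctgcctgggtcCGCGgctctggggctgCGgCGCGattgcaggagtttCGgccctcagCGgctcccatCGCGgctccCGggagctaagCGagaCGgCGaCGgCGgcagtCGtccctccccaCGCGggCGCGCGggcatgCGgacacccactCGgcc
PAX5: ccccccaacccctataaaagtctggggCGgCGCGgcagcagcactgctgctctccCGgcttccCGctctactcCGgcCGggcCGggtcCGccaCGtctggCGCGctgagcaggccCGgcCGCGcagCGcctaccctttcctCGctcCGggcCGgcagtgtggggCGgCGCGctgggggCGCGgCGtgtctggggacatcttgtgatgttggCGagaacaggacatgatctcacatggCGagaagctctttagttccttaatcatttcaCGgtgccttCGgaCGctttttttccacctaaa

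The window of CDKN2A held 26 CG dinucleotides and that of IFNB1 held 1. SHB held 49, C9orf72 18, ZDHHC21 30 and PAX5 30, against a median of 14 over all 35116 windows of the RefSeq table. Mature miRNAs of the intervals without reads and of the strip between them follow, with the seed (bases 2 to 8) in capitals; no seed was shared among them.
hsa-miR-31-5p: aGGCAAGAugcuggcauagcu
hsa-miR-876-5p: uGGAUUUCuuugugaaucacca
hsa-miR-873-5p: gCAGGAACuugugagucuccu

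The first question was which stretches of the arm gave no reads. Windows of 10 kb were counted as lost where the summed reads of the 4 libraries were under 10% of the short arm's median of 48 reads. Of 3900 such windows, 792 (20.3%) were under that number, against 8.83% of 299562 windows outside the short arm. Runs of at least 50 kb, with edges placed to 1 kb, made 7 segments that covered 7.943 Mb, or 20.4% of the arm. Among these, 4 inside the arm held almost no reads: 221 reads over 7.465 Mb, or 29.6 reads per Mb together. The other 3 were sparse and not empty, at 116.5 to 687.5 reads per Mb, and 2 of them lay at the ends of the examined interval. The split into empty and sparse segments was made after their values were seen. The same rule found 363 runs of at least 50 kb on the rest of chromosomes 1 to 22 and X, 33 of them of at least 1 Mb. Those were not sorted into assembly gaps and other sequence.

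The largest empty segment, chr9:20750001-26590000, was 5.840 Mb long and contained CDKN2A, CDKN2B, MTAP and the interferon cluster. Its DPF2 reads were 47 and 68 and its H3K14cr reads 25 and 47, which made 32.0 reads per Mb in all. Immediately outside it, the 100 kb on the left held 11.7 reads per kb and the 100 kb on the right 10.3. Placed in each library alone, its left edge moved by 5 kb and its right edge by 4 kb. A 2nd segment, chr9:28803001-28879000, was 76 kb long and held 0 reads in every library. A 3rd, chr9:28920001-29153000, was 233 kb long and held 8 reads. The 4th, chr9:30305001-31621000, was 1.316 Mb long and held 26 reads. Edges of these 3 moved by 1 to 20 kb between libraries, the widest being the right edge of the 76 kb segment, where flanking reads were few. DNA that is absent and sequence to which no read was assigned cannot be told apart in these files.

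**Figure D1:**
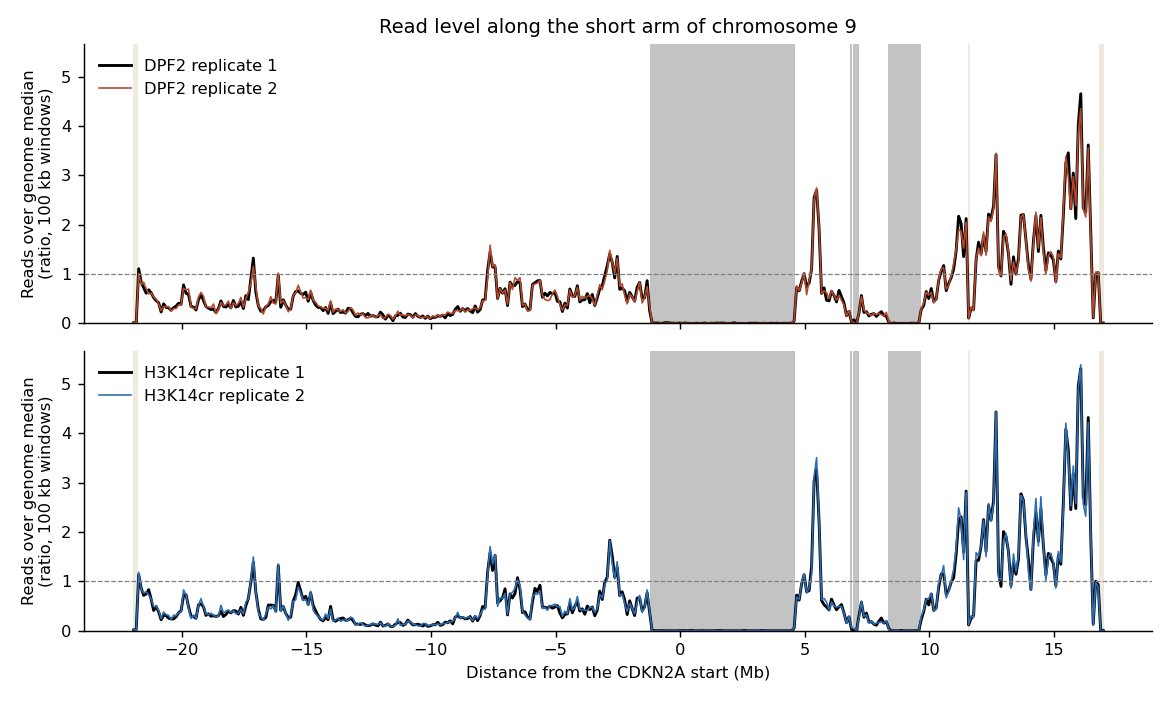
Reads per 100 kb window over the genome median of the same library (ratio), against distance from the CDKN2A start in Mb, with DPF2 libraries above and H3K14cr libraries below. Dark bands are the 4 segments without reads and pale bands the 3 sparse ones; the lines of both libraries of an antibody lie on each other, and the highest levels stand at the right, towards the centromere.

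At the largest segment the reads of both antibodies dropped within about 5 kb, as the plot of reads around the edges shows. At the inner edges of the 76 kb and 233 kb segments the flank is the strip of 41 kb between them. It held 2.463 reads per kb in the 4 libraries together. Placed in each library alone, these 2 edges moved by 20 and 14 kb. Genes on either side of the largest segment showed the same step in sums over 5 kb around their starts. MLLT3, a subunit of elongation complexes and the closest listed gene with a placed start outside the left edge, had 35 and 42 reads for DPF2 and 38 and 68 for H3K14cr. HACD4, a fatty acid elongation enzyme inside that edge, had 0 in all 4 libraries. On the right, TUSC1, a candidate tumour suppressor, had 0 in all 4, and CAAP1, an apoptosis inhibitor outside the edge, had 33, 47, 63 and 97. In the RefSeq gene order 26 protein-coding genes stand between MLLT3 and CAAP1. Ordered in this way by leftmost base, ACO1 is the next protein-coding gene after LINGO2. Gene ends were not compared, so the other 3 empty segments may lie within LINGO2 or between it and ACO1. FOCAD, the gene after MLLT3 in that order, had no placed start, so the 26 are not a count of genes inside the largest segment. LINGO2, a neuronal membrane protein, kept 17 reads at its start and ACO1, the cytosolic iron regulatory aconitase, 234.

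**Figure D2:**
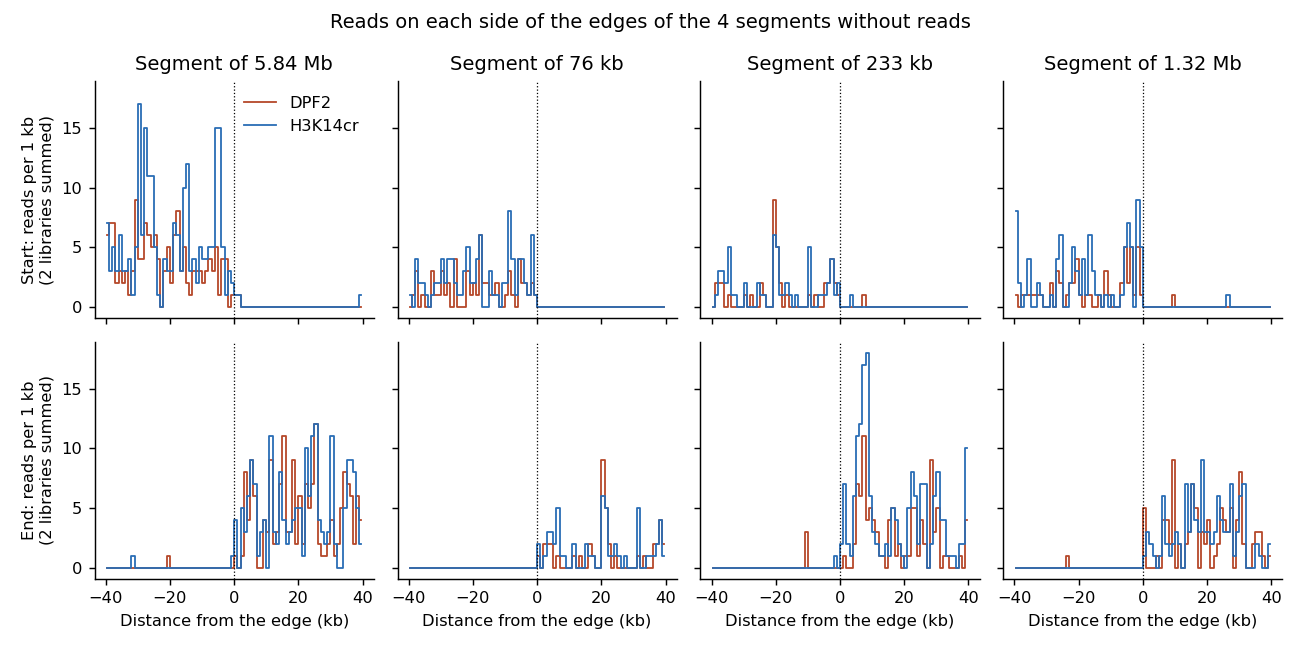
Reads per 1 kb (y axis, the 2 libraries of an antibody summed) against distance from each edge in kb (x axis), for the start (upper row) and the end (lower row) of the 4 segments without reads. Only scattered reads lie inside the dotted line; the flanks of the largest segment are well filled, and the strip to the right of the 76 kb segment is thin.

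The strip of 41 kb between the 76 kb and 233 kb segments was not empty. It held 21 and 22 reads for DPF2 and 14 and 44 for H3K14cr. Its level, reads per kb over the median of autosomal 100 kb windows of the same library, was 0.113 to 0.224. Fewer copies of the DNA and less antibody signal per copy cannot be told apart in such a level. MIR876, whose miRNA is printed above, lay in the 76 kb segment with 0 reads in 5 kb. MIR873 lay in the strip, with 0 and 1 reads for DPF2 and 1 and 3 for H3K14cr. MIR31, which encodes a miRNA often lost together with CDKN2A in tumours, lay in the largest segment with 2 reads, both of DPF2 replicate 1.

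The interval of 43 kb that holds CDKN2A and CDKN2B (chr9:21967001-22010000) had 1 read in each DPF2 library and 0 in each H3K14cr library. At the genome median these libraries would have held 99.8, 170.7, 129.4 and 206.4 reads there. A count of 0 (a limit of 3 reads) allows a level of up to 2.32% and 1.45% of the genome median in the H3K14cr libraries. The 400 kb of the interferon alpha cluster (chr9:21050001-21450000) held 6 and 5 DPF2 reads and 3 and 6 H3K14cr reads, where 928.0 to 1920.0 would have stood at the genome median. Copies of these interferon genes resemble each other closely, so reads within the genes may be assigned unevenly. Reads fell in 12 of the cluster's 400 tiles.

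Reads left inside the 4 empty segments were thin and scattered. Leaving out 5 kb at each edge, 191 of 7425 tiles held a read, 177 of them exactly 1 read, and 5 held 3 or more. The fullest tile, chr9:21445001-21446000 in the interferon cluster, held 1 and 1 DPF2 reads and 1 and 2 H3K14cr reads. It was followed by chr9:20957001-20958000 and chr9:21124001-21125000 with 4 reads each, and by chr9:25390001-25391000 and chr9:29142001-29143000 with 3 each. In the last of these all 3 reads came from DPF2 replicate 2. The other 5 of the 10 fullest tiles held 2 reads each.

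In CPM (reads scaled to 1000000 a library), the DPF2 libraries kept 0.969 and 0.819 per Mb inside the empty segments, and the H3K14cr libraries 0.334 and 0.388. Both DPF2 libraries stood above both H3K14cr libraries. As a share of the genome median level these were 0.325% (95% exact Poisson interval 0.246 to 0.422) and 0.275% (0.218 to 0.342) for DPF2, and 0.121% (0.0796 to 0.176) and 0.140% (0.104 to 0.185) for H3K14cr. Poisson intervals cover counting error only, since no molecular identifiers mark reads from separate molecules. With 1 sample per antibody the difference has no replicate check.

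Gene starts inside the empty segments had almost no reads of either antibody. The lists named 24 placed genes there; 21 had 0 reads in the 5 kb around the start in all libraries together, and the other 3 had 1 read each: KLHL9, an adaptor of a ubiquitin ligase, IFNE, the epithelial interferon, and ELAVL2, a neuronal RNA-binding protein. A start at the genome median would have 70.5 reads, and the 97 placed starts of kept segments had 5 to 866, with a median of 247. Of the 7 placed neighbours of the tumour suppressor, 6 were lost (HACD4, KLHL9, MTAP, CDKN2A, CDKN2B and DMRTA1, a DM-domain factor) and MLLT3 was kept. Among 17 interferon genes 16 were lost; IFNK, the keratinocyte interferon, lies beyond the right edge and had 90 reads. Of 13 genes beyond the cluster, ELAVL2 and TUSC1 were lost.

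The lost starts fell into 2 kinds by sequence. The 13 interferon windows in the RefSeq table held 1 to 3 CG dinucleotides (median 1) and 29.7 to 39.7% G and C. The 8 other lost windows held 15 to 26 (median 21) and 53.0 to 69.0%. A pair of GAAA words on the same strand with 3 bases of any kind between them, searched on both strands, stood in 10 of the 13 interferon windows (76.9%) and in 0 of the 8 others, against 2.86% of all windows of the table. With 2 bases between them, the spacing usual in elements bound by interferon regulatory factors, the pair stood in 2 of the 13, 0 of the 8 and 3.57% of all. The interferon genes are close copies, so their windows are not independent.

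Outside the lost segments the read level varied by more than 10 times along the arm. The long distal segment, chr9:204001-20750000, stood at 0.452 and 0.456 for DPF2 and at 0.450 and 0.455 for H3K14cr. Levels of all 4 libraries there differed by less than 0.01. The segment chr9:26590001-28803000, which holds C9orf72 and TEK, the angiopoietin receptor, stood at 0.862, 0.858, 0.921 and 0.938 in the same order. Between the empty segments, chr9:29153001-30305000 was low at 0.231, 0.239, 0.257 and 0.247. Further in, chr9:31621001-33525000 reached 1.013, 1.005, 1.095 and 1.128. The highest was chr9:33605001-38772000, the gene-dense stretch next to the centromere, at 1.803, 1.774, 2.030 and 2.032. In this last segment both H3K14cr libraries stood above both DPF2 libraries, beyond the 95% Poisson intervals (at most 1.827 for DPF2, at least 2.007 for H3K14cr).

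Over all kept segments, 31.023 Mb, the level was 0.732 and 0.730 for DPF2 and 0.779 and 0.785 for H3K14cr. Windows of 500 kb ranged from 0.115 (chr9:10000001-10500000, close to the start of PTPRD, a receptor phosphatase of neurons) to 3.154 (chr9:37500001-38000000). Of 63 covered windows, 27 (42.9%) lay below the 10th percentile of the other autosomes, 0.432. Against the 90th percentile, 2.449, 2 windows lay above. The arm was thus low over much of its length, with a few high windows on the centromeric side.

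In 21 of the 63 windows (33.33%) both DPF2 libraries lay above both H3K14cr libraries, against 36.7% of 5460 windows outside the arm. The opposite held in 26 (41.3%), against 48.9%. Both shares were below the background, and the libraries overlapped in the remaining 16 windows (25.4%, against 14.4%). All 12 windows at or above a level of 1 had H3K14cr higher, as did 82.5% of such windows outside the arm. Of 51 windows under 1, 21 had DPF2 higher (41.2%), against 66.9% outside the arm. H3K14cr was higher in 14 of the 51 (27.45%), against 13.3%.

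Sites were sought next in the kept segments. A library's 1 kb tile counted as enriched when its reads were at least 3-fold over background, with an adjusted Poisson p (Benjamini-Hochberg) of at most 0.001. Background was the chromosome mean or the local 20 kb mean, whichever was larger, and both libraries of an antibody had to pass. For DPF2, 43 of the 27454 tiles with a read were called (0.157%), against 0.221% of the genome. For H3K14cr, 81 were called (0.295%), against 0.425%. The arm was therefore below the genome for both antibodies. The chromosome mean was the larger background at 86.5 to 86.9% of kept tiles. Kept tiles held 1.698 and 2.896 DPF2 reads and 2.344 and 3.77 H3K14cr reads on average. Over all tiles of chromosome 9 with a read the means were 3.272 and 5.597, and 4.695 and 7.478. Against the local 20 kb alone the counts were 51 (0.186%, against 0.257% of the genome) and 112 (0.408%, against 0.494%). Asking for both libraries lowered these counts: without DPF2 replicate 1, 85 DPF2 tiles were called, and without H3K14cr replicate 1, 129 H3K14cr tiles.

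Touching tiles were merged into 39 DPF2 regions and 65 H3K14cr regions, none wider than 2 tiles. The antibodies shared 32 of them, 82.1% of the DPF2 regions and 49.2% of the H3K14cr regions. A region counted as shared only where the other antibody was called on a tile inside it. At RUSC2, TESK1, CLTA and B4GALT1 a DPF2 region and an H3K14cr region lay in touching tiles and were not counted as shared. A gene start placed within 2 kb was found for 23 DPF2 regions and 44 H3K14cr regions. Only 123 chosen starts were placed, so a region without one may lie at the start of another gene. The counts therefore give no share of gene starts, and no share over all tiles was computed. Tiles per Mb were most numerous where the read level was highest: the segment next to the centromere had 25 DPF2 and 43 H3K14cr tiles, 4.84 and 8.32 per Mb. The long distal segment, 4 times as long, had 9 and 17, or 0.438 and 0.827 per Mb. The calling rule is part of this, since the chromosome mean asks for a higher fold over the local mean where the level is low. Against the local mean alone the segment next to the centromere had 27 and 50 tiles, 5.225 and 9.677 per Mb. The distal segment then had 13 and 34, or 0.633 and 1.655 per Mb. The limit on the adjusted Poisson p acts under both backgrounds, and with fewer reads per kb a higher fold is needed to pass it. In the 4 libraries together the distal segment held 6.397 reads per kb, and the segment next to the centromere 27.09. Tile density at equal read level was not tested.

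The highest DPF2 fold over the local mean stood far from any listed gene, between the starts of SMARCA2 and VLDLR, at chr9:2241001-2242000. The tile held 31 and 57 DPF2 reads (3.98 and 4.28 CPM) and 5 and 13 H3K14cr reads (0.460 and 0.749 CPM). Both DPF2 libraries were far above both H3K14cr libraries, and the fold was 15.8 in the lower DPF2 library. H3K14cr was not called there. Within the tile, 54.8% and 42.1% of the DPF2 reads lay in 1 bin of 100 bp, at the right end of the tile.

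C9orf72, whose product acts in autophagy and endosomal traffic, came next. Its tile, chr9:27573001-27574000, held 28 and 41 DPF2 reads and 44 and 44 H3K14cr reads. It was called for both antibodies, with lower folds of 8.12 and 6.47. RRAGA, a GTPase that carries amino acid signals to mTORC1, had 20, 28, 29 and 36 reads at chr9:19049001-19050000, with folds of 7.27 and 8.09. DENND4C, an exchange factor for Rab GTPases, had 25, 40, 23 and 52 and a DPF2 fold of 7.21. SNAPC3, a subunit of the complex that starts small nuclear RNA genes, had 16, 28, 24 and 44 and a DPF2 fold of 6.28. In these 4 both antibodies were called on the same tile.

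SHB, an adaptor protein with an SH2 domain, had the most reads of any placed start on the arm, 866 over 5 kb. Its tile chr9:38069001-38070000 held 81 and 141 DPF2 reads (10.4 and 10.59 CPM) and 54 and 91 H3K14cr reads (4.96 and 5.24 CPM). The tile before it, chr9:38068001-38069000, held 23 and 40 DPF2 reads and 64 and 107 H3K14cr reads. The ratio of the SHB tile to the tile before was 3.522 and 3.525 for DPF2 and 0.844 and 0.850 for H3K14cr. DPF2 thus rose into the SHB tile, while H3K14cr was slightly lower there than in the tile before. The ratios were close in both libraries of each antibody. The RefSeq window of SHB printed above had the highest share of G and C shown, 85%.

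For H3K14cr the highest fold was at ZDHHC21, a palmitoyltransferase on none of the gene lists. Its tile, chr9:14693001-14694000, had 26 and 35 H3K14cr reads and a lower fold of 11.1. Its DPF2 reads, 13 and 29, were 8.66-fold or more over the local mean, and were not called against the chromosome mean. KIAA2026, known also as BRD10, a bromodomain protein, followed with 19 and 29 H3K14cr reads, a fold of 8.84, and 6 and 10 DPF2 reads. NFX1, a repressor that binds X-box motifs, had 37 and 57 H3K14cr reads at a fold of 7.04. A region near no listed start, chr9:29212001-29213000, had 22 and 50 reads and a fold of 6.98; it was the only called tile of its segment, between the empty ones. RUSC2, SMU1, a splicing factor, JAK2, the kinase of cytokine receptors, DNAJA1, a co-chaperone, and CLTA, a clathrin light chain, made up most of the remaining top 12, with folds of 5.71 to 6.06.

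**Figure D3:**
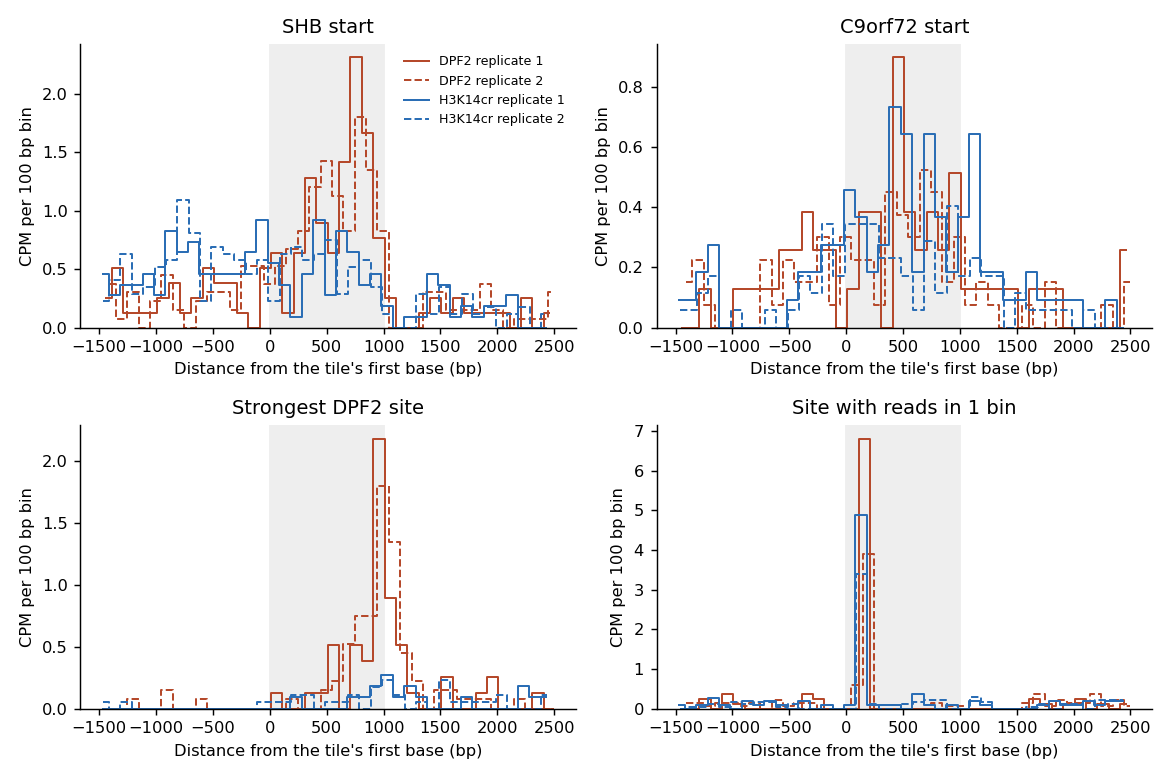
CPM per 100 bp bin (y axis) against distance from the first base of the tile in bp (x axis), for the tiles at SHB, C9orf72, the strongest DPF2 site and the site with its reads in 1 bin; solid and dashed lines are replicates 1 and 2, and the shaded band is the tile. DPF2 peaks inside the SHB tile, while H3K14cr spreads over the tile and the stretch to its left. H3K14cr is near the floor at the strongest DPF2 site, and all 4 libraries rise in 1 bin at the last site.

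A site among the top 12 of both antibodies had another shape. In chr9:34999001-35000000, 53, 52, 53 and 59 reads of the 4 libraries lay in 1 bin of 100 bp, 79.7% or more of the tile's reads in every library. The number of reads in that bin hardly changed while library depth differed by more than 2 times. It was the only region of 39 and of 65 with at least 50% of its reads in 1 bin of every library. Without it, a check chosen after the data were seen, the counts were 42 and 80. A further 4 DPF2 regions of the top 12 had no listed start within 2 kb: chr9:37324001-37325000 (23, 24, 23 and 26 reads in the order DPF2 then H3K14cr), chr9:36400001-36401000 (32, 51, 34 and 57), chr9:20684001-20685000 (22, 22, 16 and 43) and chr9:26955001-26957000. UBE2R2, a ubiquitin-conjugating enzyme, completed them with 21, 30, 26 and 57 reads.

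Across the lists, 89 placed starts lay in kept segments. An enriched tile within 2 kb was found for both antibodies at 23, for H3K14cr alone at 21, for DPF2 alone at 0, and for neither at 45. Depth limits this split, as both libraries had to pass and DPF2 replicate 1 was the shallowest. At SMU1, DPF2 stood 4.41 and 4.36-fold over the local mean, but the adjusted Poisson p of replicate 1 was 0.0077. In libraries thinned to the shallowest, 34 DPF2 and 49 H3K14cr tiles of the arm were called. The split was not recounted there, and no share over all gene starts was computed. Of the 44 housekeeping genes, the longest list, 17 had both, 13 H3K14cr alone and 14 neither. Those with both included VCP, an ATPase of protein quality control (22 and 43 DPF2 reads, 35 and 48 H3K14cr reads), POLR1E, a subunit of RNA polymerase I (33, 41, 60 and 85) and TOMM5, of the mitochondrial import pore (31, 48, 59 and 64). RPS6, a ribosomal protein, had H3K14cr alone (11, 18, 21 and 41). BAG1 and CHMP5 shared 1 tile and so did PLAA and IFT74, as pairs of starts that face away from each other.

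Of 14 genes for chromatin and transcription factors, PSIP1, a chromatin reader of methylated H3, and NFX1 had both antibodies. NFIB and KIAA2026 had H3K14cr alone, and 10 had neither. SMARCA2, an ATPase of the BAF complexes to which DPF2 belongs, was among the 10, with 4 and 13 DPF2 reads and 13 and 27 H3K14cr reads in its fullest tile. PAX5, the B-cell factor, had 2, 2, 5 and 7. Against the local mean alone, RFX3 and KDM4C gained an H3K14cr call.

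Of 11 placed signalling genes, SHB had both antibodies and JAK2 had H3K14cr alone (27 and 31 reads, against 3 and 21 of DPF2). In that JAK2 tile DPF2 replicate 2 stood 5.915-fold over the local mean, with an adjusted Poisson p of 9.9e-05. DPF2 replicate 1, the shallowest library, stood at 1.5-fold and did not pass. CD274 and PDCD1LG2, the ligands of PD-1, were among the 9 with neither, with 51 and 43 reads over 5 kb in all 4 libraries. Among the 11 kept genes beyond the cluster, MOB3B, C9orf72 and ACO1 had both. CAAP1, PLAA, IFT74 and TOPORS, a ubiquitin and SUMO ligase, had H3K14cr alone. At CAAP1 DPF2 missed its call at the limit, with adjusted Poisson p of 0.00061 and about 0.001. Its folds over the local mean were 5.66 and 5.07, against 4.31 and 5.62 for H3K14cr. Of 9 placed genes listed as silent in blood, DNAI1, of the dynein arms of cilia, had H3K14cr, and 8 had neither; PTPRD had 34 reads and TYRP1, a melanosome enzyme, 16 over 5 kb. AQP3, a water and glycerol channel on the same list, had 451 reads and no call.

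**Figure D4:**
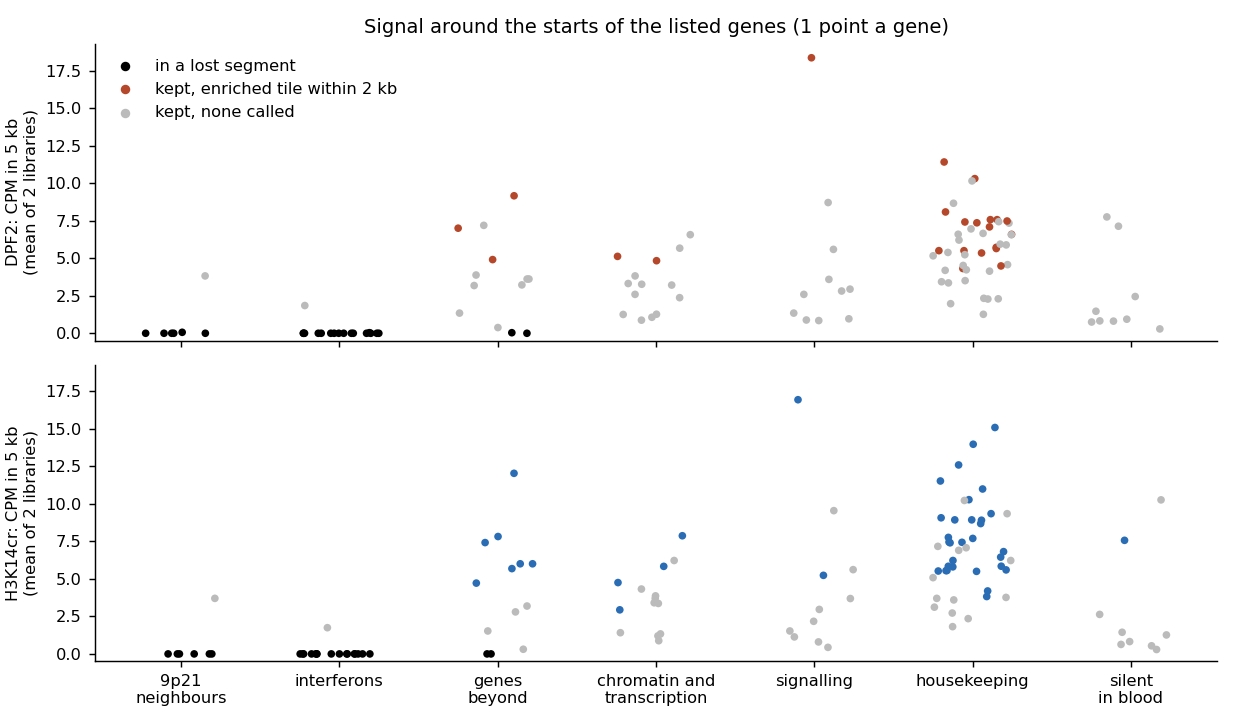
CPM in the 5 kb around each listed gene start (y axis, mean of 2 libraries; 1 point a gene) by list, for DPF2 above and H3K14cr below. Black points are starts in lost segments, coloured points kept starts with an enriched tile within 2 kb and grey points kept starts without one; all black points lie at or near 0.

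The CG content of kept starts overlapped between the classes. Windows of starts with both antibodies held 18 to 49 CG dinucleotides (median 31, 21 windows), those with H3K14cr alone 12 to 36 (median 26, 18 windows), and those with neither 1 to 49 (median 25, 46 windows). CG-rich starts without a site included VLDLR with 49, PTPRD with 40, BNC2 with 37 and PAX5 with 30. The word CCGGAAGT, the core recognised by ETS factors, on either strand, was present in 7 of 39 windows with a site (17.9%), in 4 of 46 without (8.70%) and in 4.14% of all windows. These are letters found in a window and carry no statement about a factor.

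The antibodies were then compared directly over enriched tiles that held 10 or more reads on average, 12488 in the genome and 90 on the arm, with limma on log2(CPM + 0.5). On that scale differences of low tiles are understated. DPF2 was higher in 4 of the 90 tiles, against 4.24% of the genome, and H3K14cr in 23, against 31.0%. A tile entered by being called for either antibody in the same libraries, so a tile called for 1 antibody alone entered through the side on which it was high, and its difference is given as a description. Of 9 tiles called for DPF2 alone, 3 were higher for DPF2, and of 47 called for H3K14cr alone, 21 were higher for H3K14cr. Among the 34 called for both, DPF2 was higher in 1, H3K14cr in 2, and 31 did not pass. The median difference (DPF2 minus H3K14cr) was -0.33 in the genome and -0.30 on the arm. The split changed with the scaling: with TMM factors, which bring the genome's median to -0.02, 7 tiles were higher for DPF2 and 5 for H3K14cr. Without H3K14cr replicate 1, 9 tiles were called in all, and without replicate 2, 12.

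The tile at chr9:2241001-2242000, called for DPF2 alone, had the largest difference, 2.08 ± 0.24 (SE), and the tile after it, with 17 and 34 DPF2 and 8 and 15 H3K14cr reads, had 1.14 ± 0.24. At chr9:26955001-26956000, with 17, 20, 4 and 13 reads, the difference was 1.15 ± 0.25. These 3 entered through DPF2. The SHB tile, called for both antibodies, was the 4th, 0.97 ± 0.16 (limma adjusted p = 2.38e-06), while the tile before it, called for H3K14cr alone, was -0.91 ± 0.17. In all 5 the libraries of the antibodies did not overlap. For the SHB pair each antibody was thus the higher one in 1 of 2 neighbouring tiles.

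The largest difference towards H3K14cr was at chr9:34611001-34612000, near no listed start, with 15 and 20 DPF2 reads and 45 and 83 H3K14cr reads (-1.17 ± 0.20). It and the tiles with a difference towards H3K14cr that follow entered through H3K14cr alone. Beside B4GALT1, a galactosyltransferase of the Golgi, chr9:33166001-33167000 had 10, 16, 30 and 67 reads (-1.11). HINT2, a mitochondrial hydrolase, had 9, 20, 36 and 54 in the tile beside its start (-1.03), and DCAF12, an adaptor of a ubiquitin ligase, 9, 15, 28 and 48 (-0.95). JAK2 (-0.94), MELK, a mitotic kinase (-0.92), and RUSC2 (-0.85) followed. Near these 3 starts the difference lost its call without DPF2 replicate 1, where it was -0.33, -0.35 and -0.47. In DPF2 replicate 1 their tiles held 3, 5 and 8 reads. At B4GALT1 and RUSC2 the adjoining tile was called for DPF2 and not for H3K14cr. For B4GALT1 this was chr9:33167001-33168000, with 23, 33, 32 and 39 reads (0.06). For RUSC2 it was chr9:35489001-35490000, with 18, 23, 16 and 41 (0.08). The tile before that of MELK was called for both antibodies.

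**Figure D5:**
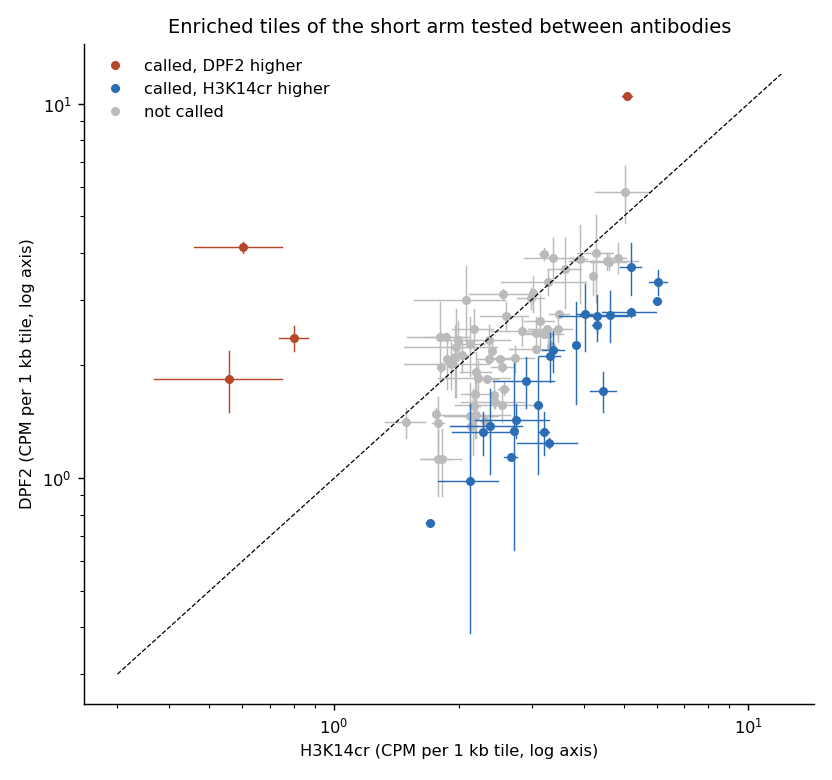
DPF2 CPM (y axis) against H3K14cr CPM (x axis), both on log axes, for the 90 enriched 1 kb tiles of the arm that were tested; points are means, bars join the 2 libraries, and the dashed line marks equal values. The 4 tiles called higher for DPF2 lie above the line, 3 of them at under 1 CPM of H3K14cr, and the 23 called higher for H3K14cr lie below it.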

How the data were processed

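DPF2 and H3K14cr were profiled by ChIP-seq in K562. Bowtie2, without a version, and the builds hg19 and mm9 are named in the submitters' processing notes; how duplicates were treated, what was filtered and how bins were made is not given in the sources used here. Deposited signal files list 100 bp bins, and the values of each sum to about 10000000, so the authors' scale was read as reads scaled to that total. Dividing by the value of 1 read gave whole reads within 0.005 for at least 99.9999% of values. Read totals per library, which set the precision, open the report.

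Reads were summed in 1 kb tiles by bin midpoint. Gene starts on hg19 were written from general knowledge and compared with RefSeq on GRCh38.p14. Of 127 starts, 121 lay within 0.6 kb, and 4 were not placed within 2 kb and not used. Among the 127, 10 were on none of the gene lists, ZDHHC21 and RUSC2 included. Enriched tiles were tested over the whole genome. Limma (trend) was run on log2(CPM + 0.5), with calls at 0.05 after Benjamini-Hochberg adjustment over all tiles tested. Members, gene lists and tests were chosen with earlier results of these data known.

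Named were all lost segments, the 10 fullest tiles inside them, the 12 regions of highest fold for each antibody, up to 8 tiles each way between antibodies, and listed genes. Steps were tested on simulated data. Alternatives covered windows, backgrounds, fold, tile size, depth, scaling, pseudocount, filter, test, replicate block and each library left out. Tools were limma 3.58.1, edgeR 4.0.16 and DESeq2 1.42.0 in R 4.3.3, and scipy 1.17.1, numpy 2.4.6, pandas 2.3.3 and matplotlib 3.10.9 in Python 3.11.15.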

Additional observations from a re-analysis of the deposited data

How the results depend on the processing

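The lost length, 7.943 Mb, was 8.040 Mb with 5 kb windows, 7.813 and 8.104 Mb with limits of 5% and 20% of the median, 7.886 to 7.970 Mb without each library in turn, and 7.869 and 7.856 Mb from DPF2 replicate 1 and H3K14cr replicate 2 alone. The level of all kept segments, 0.756 on average, was 0.598 over the mean of autosomal windows. Enriched DPF2 tiles, 43, numbered 151 against the chromosome mean alone, 11 at a fold of 5, 25 in 500 bp tiles, and 61 to 85 from 1 library alone. Enriched H3K14cr tiles, 81, numbered 287 against the chromosome mean alone, 11 at a fold of 5, 49 in libraries thinned to the shallowest, and 96 to 129 from 1 library alone. With these backgrounds, folds, tile sizes and thinned libraries, the arm's share of called tiles stayed below the genome's. Each of these settings keeps the arm's lower read level, and the arm was not compared with tiles of equal level. Tiles that differed between antibodies, 27, numbered 12 with TMM and 12 with median-of-ratios factors and 9 to 33 without each library. DESeq2 called 2 of the 38 tiles to which it gave an adjusted p, and 12 of 90 had an unadjusted p under 0.05. With the replicate number as a block 26 were called. Same-numbered libraries deviated with a correlation of -0.017, and the labels do not say that a number marks a shared day. Of 132 values for 12 named tiles, 104 kept their call, 19 lost it, 9 had no adjusted p in DESeq2 and 0 reversed. For the lost intervals the limit is depth: a few reads per 100 kb cannot be ranked.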
